A study of Fragaria x ananassa with 9 samples.

Results

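Homeobox proteins are transcription factors that carry a homeodomain, and 91 unigenes of strawberry petals annotated as such are described here. They were chosen by their SwissProt description, which had to name a homeobox or homeodomain protein or a HOMEODOMAIN GLABROUS protein. Of 93 unigenes with such a description, 2 were left out by name. All 91 reached 1 TPM in at least 3 of the 9 libraries, so the filter on low values removed none of them. They are 91 of 47924 unigenes that passed this filter, out of 50285 listed. At the edge of the filter, 5 members reached 1 TPM in exactly 3 libraries, while 66 did so in all 9. Of these 5, HOX1 passed only through PF_D and WOX1 and 2 unigenes named ZHD1 only through PF_L, the stage where each is high, so the calls of these 4 are given as a description. HDG11, HOX11, BLH8 TRINITY_DN22243_c1_g3 and ZHD1 TRINITY_DN13742_c0_g2 also needed the PF_L libraries to pass, with fewer than 3 other libraries at 1 TPM. Their calls against PF_L are likewise given as a description.

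The RNA came from petals of Sijihong, a cultivar of pink-flowered strawberry with dark red flowers, listed as Fragaria x ananassa. The paper traces pink-flowered strawberry to intergeneric crosses of Fragaria with Potentilla, and Sijihong to Pink Princess × Pretty Beauty. There were 3 biological replicates at each of 3 bud stages and no mutant, treatment or second cultivar. In the young bud (PF_L) the sepals were closed and the petals colorless, at the beginning of coloration (PF_Z) the sepals were slightly open, and in the big bud (PF_D) the still closed petals were fully colored. The values are TPM, a transcript abundance corrected for length and brought to the same sum in every library, of a de novo assembly, so the unigenes have no genome coordinates here. Stages were compared with limma on log2(TPM + 1), and a member counted as called where its mean differed by a log2 fold change of 1 or more with a Benjamini-Hochberg adjusted p under 0.05 over all 47924 unigenes. Fold changes below are on this scale, on which the added 1 understates the change of members at a few TPM, and the values of 3 libraries are given in the order of replicates 1, 2 and 3.

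Plant homeobox genes fall into families that differ in the domains beside the homeodomain. HD-ZIP proteins join the homeodomain to a leucine zipper and form 4 classes, known in turn for growth under water deficit and light (I), shade and auxin responses (II), upper-side identity and vascular tissue of lateral organs (III) and the epidermis (IV). KNOX and BEL1 proteins bind each other and act in meristems, organ shape and cell walls, WOX proteins keep stem cells and drive the outgrowth of blades, and zinc finger homeodomain (ZHD) proteins are a further plant-specific family. A gene name here is that of the best protein match, from Arabidopsis thaliana for 72 members, rice for the 9 indica and 6 japonica matches, apple (Malus domestica) for 2 and parsley (Petroselinum crispum) for 2, so it marks a relative and not a characterized strawberry gene. For 87 members the best match in the Nr database was from Fragaria vesca, the woodland strawberry. Some members had an Nr match named for another gene of the family. Among these were HAT4 (Nr name HAT3), HAT3 (HAT4), ATHB-16 (HAT5) and BLH7 (BLH6). Others were BLH2 TRINITY_DN23902_c1_g1 (BLH4), BLH8 TRINITY_DN22243_c1_g7 (BLH9) and BLH8 TRINITY_DN22243_c1_g3 (BLH9).

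The families held 41 HD-ZIP unigenes (10 of class I, 8 of class II, 9 of class III and 14 of class IV), 8 KNOX, 12 BEL1, 4 WOX, 9 ZHD, 5 PHD-finger type and 12 other homeobox unigenes. The domain column of the deposited table, which the choice did not use, was read for the first domain listed, and none was read for some members. It named the POX domain for 9 of 12 BEL1 members, a KNOX1 or KNOX2 domain for 1 and 5 of the 8 KNOX members, the START domain for 4 of 9 class III and 10 of 14 class IV members, and the zinc finger dimer domain for 7 of 9 ZHD members. Lengths ran from 207 to 5094 bp with a median of 1312 bp, and 18 members were shorter than 500 bp. The assembly placed 42 members in 17 shared Trinity components, 11 of which held members of different names, so reads of near-identical homeologs or relatives may be split among unigenes in ways that cannot be checked from TPM.

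Among the libraries, PF_Z replicate 3 stood apart from the other PF_Z libraries on the second principal component of all unigenes (-24.94 against -100.03 and -106.71). It gave the highest of the 3 PF_Z values for 59 of the 91 members (64.8%), against 46.4% of all tested unigenes, and the calls that change without it are named below.

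The mean was highest in PF_L for 54 members (59.3%), in PF_D for 30 and in PF_Z for 7 (7.69%), beside 43.8%, 38.2% and 17.9% of all tested unigenes. Their summed level was 2376 to 2493 TPM in the PF_L libraries, 1672 to 2364 in PF_Z and 1847 to 2215 in PF_D. In PF_D against PF_L, 7 members were higher and 33 lower, together 44.0% of the 91, where 25.1% of all tested unigenes were called (9.38% higher and 15.7% lower). In PF_Z against PF_L, 2 were higher and 16 lower, where 6.84% of all unigenes were called (2.15% higher and 4.7% lower). In PF_D against PF_Z, 5 were higher and 19 lower, where 18% were called (8.89% higher and 9.07% lower). As each stage enters 2 comparisons, these counts are not independent of each other. HOX1 is among the members counted higher in PF_D against both other stages. WOX1 and 2 ZHD1 unigenes are among those counted lower against PF_L in both later stages. These members passed the filter only through the stage where each is high. HDG11, HOX11, BLH8 TRINITY_DN22243_c1_g3 and ZHD1 TRINITY_DN13742_c0_g2, also counted lower in PF_D against PF_L, needed the PF_L libraries to pass the filter. The median log2 fold change of the members was -0.50 in PF_D against PF_L, -0.40 in PF_Z against PF_L and -0.16 in PF_D against PF_Z, beside -0.12, -0.21 and 0.08 for all tested unigenes. Called in at least 1 comparison were 42 members (46.2%, beside 31.2% of all unigenes), and in all 3 comparisons 6 (beside 1.71%).

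Counts of PF_Z calls depended on single libraries and on scaling. Without PF_Z replicate 3, 2 members were higher and 21 lower in PF_Z against PF_L, and 12 were higher and 18 lower in PF_D against PF_Z. The 7 members then called higher in PF_D against PF_Z were ATHB-6 TRINITY_DN25945_c0_g1 at 1.39, ATHB-52 at 1.09, ROC5 at 1.06, BLH1 at 1.04, BLH7 at 1.05, LUMINIDEPENDENS (LD) TRINITY_DN15277_c0_g1 at 1.13 and NDX TRINITY_DN26258_c0_g3 at 1.03, and RLT3 lost its call. In PF_Z against PF_L, HOX22 at -1.22, HAT14 TRINITY_DN22426_c0_g3 at -1.24, ATHB-14 TRINITY_DN27550_c0_g1 at -1.03, ROC5 at -1.07, BLH2 TRINITY_DN17062_c0_g1 at -1.11 and NDX TRINITY_DN26258_c0_g3 at -1.01 were then called lower, and ROC3 lost its call. Without PF_L replicate 3, 10 members in place of 16 were lower in PF_Z against PF_L. Scaling the libraries by median ratios, which moved the median of all unigenes from -0.21 to -0.03 in that comparison, gave 4 higher and 14 lower.

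**Figure D1:**
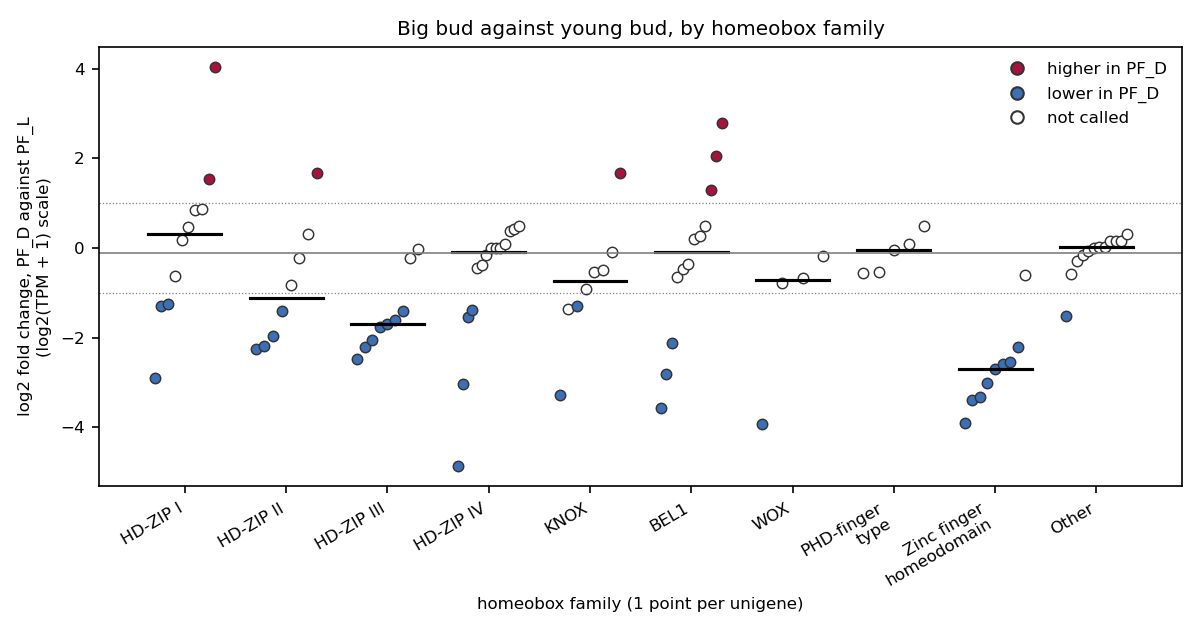
Log2 fold change of PF_D against PF_L, on the log2(TPM + 1) scale, for each of the 91 homeobox unigenes (1 point each) by family. Filled points were called higher or lower, open points were not called, black bars are family medians, the grey line is the median of all tested unigenes (-0.12) and dotted lines mark a change of 1 in either direction. All 9 ZHD points lie below 0, 7 of the 9 class III points lie at -1.40 or lower, and class I spans -2.90 to 4.04.

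The HD-ZIP class III members were not called at the first step and mostly fell at the second. None of the 9 was called by limma in PF_Z against PF_L (2 had an unadjusted p under 0.05), beside 6.84% of all tested unigenes. Their changes ran from -0.73 to 0.26, and 1 (ATHB-14 TRINITY_DN27550_c0_g1, at -1.03) was called lower without PF_Z replicate 3. Both in PF_D against PF_L and in PF_D against PF_Z, 7 of the 9 fell, beside 15.7% and 9.07% of all tested unigenes. In both, 7 class III members were counted whichever library was left out. The 9 lie in 4 Trinity components and 8 of them share a component with another, so they may share reads and need not be separate genes. In Arabidopsis these genes are kept to the upper side and the vasculature of organs by microRNAs. ATHB-14 (PHABULOSA), a gene of upper-side identity, was matched by a pair of unigenes. ATHB-14 TRINITY_DN15498_c0_g1 was at 34.1, 29.99 and 26.2 TPM in PF_L, 17.9, 22.5 and 31.6 in PF_Z and 4.65, 7.52 and 5.17 in PF_D. The PF_Z libraries overlapped the PF_L libraries, and every PF_D library lay below both. It fell by 2.21 log2 units (SE 0.23, limma adjusted p = 6.6e-05) from PF_L to PF_D and by 1.87 log2 units (SE 0.23, limma adjusted p = 0.00037) from PF_Z to PF_D. The other ATHB-14 unigene, TRINITY_DN27550_c0_g1, was at 18.2, 19.4 and 18.7 TPM in PF_L, 6.06, 12.3 and 16.99 in PF_Z and 2.13, 2.65 and 2.86 in PF_D. Its PF_Z libraries were lower than all PF_L libraries but differed among themselves by more than those of any other stage, and it fell by 2.48 log2 units (SE 0.30, limma adjusted p = 0.00015) from PF_L to PF_D.

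REVOLUTA (REV), which in Arabidopsis also promotes the growth of lateral meristems, was matched by 3 unigenes, all of which fell. REV TRINITY_DN27550_c1_g1 was at 27.9, 20.7 and 18.3 TPM in PF_L, 19.99, 19.6 and 19.5 in PF_Z and 5.12, 7.72 and 4.91 in PF_D. All 3 PF_D libraries lay below the lowest of the other 6, and the change from PF_Z to PF_D was -1.60 log2 units (SE 0.20, limma adjusted p = 0.00042). From PF_Z to PF_D, REV TRINITY_DN27550_c1_g2 fell by 1.57 log2 units (SE 0.22, limma adjusted p = 0.0008) and REV TRINITY_DN15498_c0_g2 by 1.66 log2 units (SE 0.22, limma adjusted p = 0.00046). REV TRINITY_DN27550_c1_g1 and REV TRINITY_DN27550_c1_g2 lie in the same Trinity component and may share reads. ATHB-8 (TRINITY_DN25433_c1_g2), a gene of the procambium that gives rise to vascular strands, was at 15.4, 14.7 and 13.7 TPM in PF_L, 7.41, 8 and 11.8 in PF_Z and 2.05, 2.99 and 3.37 in PF_D. Its levels stepped down from stage to stage with no overlap, and the change from PF_L to PF_D was -2.05 log2 units (SE 0.22, limma adjusted p = 7e-05).

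ATHB-15 (CORONA), the remaining name found among the class III members, was not called at 2 of its 3 unigenes. ATHB-15 TRINITY_DN23978_c0_g2, the member of the class with the highest mean, was at 25.1, 23.9 and 21.6 TPM in PF_L, 12.4, 19.2 and 24.1 in PF_Z and 18.9, 20.5 and 20.7 in PF_D. The PF_D libraries lay within the range of PF_Z and below all PF_L libraries, and the change from PF_L to PF_D was -0.22 (SE 0.21, limma adjusted p = 0.46). ATHB-15 TRINITY_DN25433_c1_g3 was at 9.70, 11.1 and 10.03 TPM in PF_L, 6.48, 8.03 and 10.2 in PF_Z and 8.58, 13.6 and 8.75 in PF_D, and its stages overlapped. The third, a shorter unigene (TRINITY_DN15498_c0_g3, 614 bp) whose best Nr match was named for ATHB-8, fell by 1.60 log2 units (SE 0.27, limma adjusted p = 0.0012) from PF_L to PF_D. Within each library, the ratio of ATHB-15 TRINITY_DN23978_c0_g2 to ATHB-14 TRINITY_DN15498_c0_g1 was 0.735 to 0.825 in PF_L, 0.694 to 0.853 in PF_Z and 2.73 to 4.06 in PF_D, a pair chosen after its values were seen. Markers of xylem moved in the same comparison. The 7 xylem unigenes (secondary wall cellulose synthases CESA4, CESA7 and CESA8, the regulator NAC007 and the protease XCP1) summed to 18.3 to 23.5 TPM in PF_L, 47.7 to 53.0 in PF_Z and 5.62 to 10.8 in PF_D, with 7 of 7 lower in PF_D against PF_Z, 4 lower in PF_D against PF_L and 3 higher in PF_Z against PF_L. Among all tested unigenes, 9.07% were lower in PF_D against PF_Z and 2.15% higher in PF_Z against PF_L. In PF_D against PF_L, 15.7% were lower and 9.38% higher. The 11 phloem unigenes summed to 1220 to 1314, 698 to 947 and 306 to 643 TPM. Of the 10 that were tested, 4 were lower and 2 higher in PF_D against PF_L, and the sieve element gene SEOB TRINITY_DN13962_c0_g1 and PP2A1 (TRINITY_DN17278_c0_g5) were those that rose. Their part in the fall of the class was not tested, and in petal RNA fewer cells of a type and less RNA per cell cannot be told apart.

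**Figure D2:**
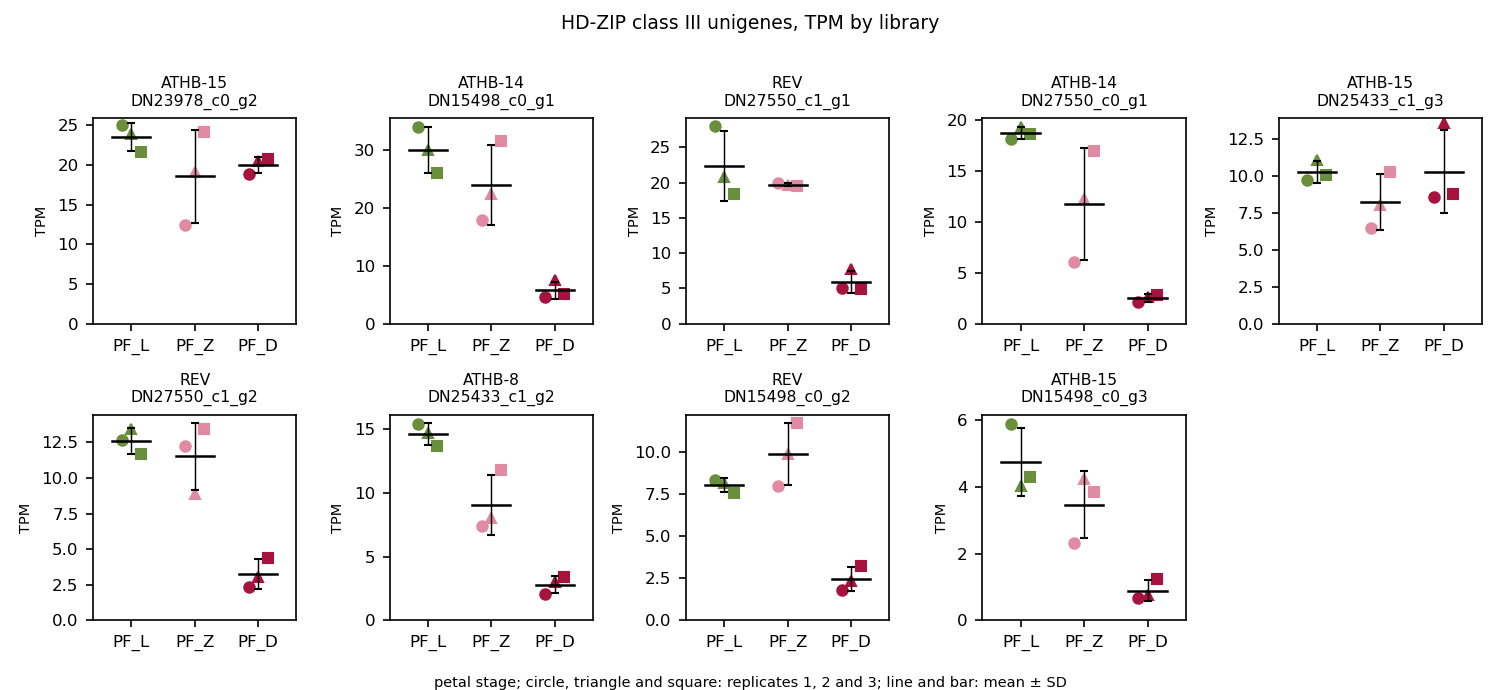
TPM of the 9 HD-ZIP class III unigenes in each library at PF_L, PF_Z and PF_D, with circle, triangle and square for replicates 1, 2 and 3 and line and bar for the mean ± SD of 3 libraries. In 7 panels the PF_D points sit below all other points, while ATHB-15 DN23978_c0_g2 stays at 18.9 to 20.7 TPM and ATHB-15 DN25433_c1_g3 at 8.58 to 13.6 TPM in PF_D.

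HD-ZIP class I held the largest rise of the 91 members, that of ATHB-12, and a fall of ATHB-40 to near 0. In PF_D against PF_L, 2 of its 10 members rose and 3 fell, beside 9.38% and 15.7% of all tested unigenes. In PF_D against PF_Z 3 rose and 1 fell, beside 8.89% and 9.07%. In PF_Z against PF_L 2 fell, beside 4.7%. ATHB-12 (TRINITY_DN16333_c0_g6), induced by abscisic acid and water deficit in Arabidopsis, was at 2.08, 1.31 and 1.16 TPM in PF_L, 3.79, 3.15 and 1.90 in PF_Z and 26.4, 45.9 and 52.8 in PF_D. The PF_D libraries lay far above the other 6, which stayed under 4 TPM. It rose by 4.04 log2 units (SE 0.30, limma adjusted p = 7.3e-06) from PF_L and by 3.41 log2 units (SE 0.30, limma adjusted p = 5.3e-05) from PF_Z.

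ATHB-13 (TRINITY_DN17640_c0_g1), which acts in leaf and cotyledon growth in Arabidopsis, dipped before it rose. It was at 51.2, 51.4 and 46.6 TPM in PF_L, 14.7, 14.3 and 35.4 in PF_Z and 151, 128 and 157 in PF_D. Each PF_Z library lay below, and each PF_D library above, all PF_L libraries. It rose by 1.53 log2 units (SE 0.29, limma adjusted p = 0.0024) from PF_L to PF_D and by 2.82 log2 units (SE 0.29, limma adjusted p = 0.00013) from PF_Z to PF_D. The dip, a change of -1.30 log2 units (SE 0.29, limma adjusted p = 0.022), was called in 13 of 20 alternative analyses and was lost without any 1 of the 3 PF_L libraries or without PF_Z replicate 1 or 2, with changes of -1.71 to -1.08 as libraries were left out. HOX22 (TRINITY_DN14151_c0_g1), a relative of a drought-responsive rice gene, was at 49.1, 42.4 and 37.97 TPM in PF_L, 14.3, 22.1 and 40.8 in PF_Z and 87.5, 61.1 and 92.7 in PF_D. It was called only in PF_D against PF_Z, where it rose by 1.71 log2 units (SE 0.32, limma adjusted p = 0.0035). Replicate 3 of PF_Z was the highest PF_Z library for both, within the PF_L range for HOX22.

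ATHB-6, a repressor of abscisic acid responses in Arabidopsis, was matched by a pair of unigenes. ATHB-6 TRINITY_DN25945_c0_g1, the most abundant class I member, was at 169, 175 and 182 TPM in PF_L, 35.98, 50.4 and 103 in PF_Z and 119.8, 124 and 98.8 in PF_D. The PF_Z libraries spread by more than those of the other stages and still lay below all PF_L libraries, with a change of -1.60 log2 units (SE 0.31, limma adjusted p = 0.012). Its change from PF_Z to PF_D, 0.98 (SE 0.31), was not called but reached 1.39 and was called without PF_Z replicate 3. The other ATHB-6 unigene, TRINITY_DN16230_c0_g1, was at 22.8, 27.5 and 23.3 TPM in PF_L, 12.2, 14.6 and 26.4 in PF_Z and 8.85, 8.03 and 11.3 in PF_D, and it fell by 1.30 log2 units (SE 0.26, limma adjusted p = 0.0031) from PF_L to PF_D. Between these stages the first unigene changed by -0.62 (SE 0.31, limma adjusted p = 0.14), and the difference between the pair was not tested.

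ATHB-16 (TRINITY_DN23618_c1_g1), which restrains leaf expansion in Arabidopsis, was at 57.1, 56.5 and 52.8 TPM in PF_L, 27.5, 34.3 and 25.2 in PF_Z and 27.6, 23.1 and 18.6 in PF_D. The PF_L libraries were above all others, PF_Z and PF_D overlapped, and the change from PF_L to PF_D was -1.24 log2 units (SE 0.17, limma adjusted p = 0.00039). ATHB-40 (TRINITY_DN11866_c0_g1), known in Arabidopsis from the arrest of axillary buds, was at 4.63, 14.1 and 4.88 TPM in PF_L, 1.34, 5.71 and 2.66 in PF_Z and 0, 0 and 0.20 in PF_D. It was listed at 0 in 2 of the 3 PF_D libraries and spread widely in PF_L and PF_Z, with a change from PF_L to PF_D of -2.90 log2 units (SE 0.46, limma adjusted p = 0.00087). Its call in PF_D against PF_Z was lost without PF_Z replicate 2, where the change was -1.46. The remaining 3 members (ATHB-20, HAT5 and ATHB-52) stayed between 0.13 and 13.3 TPM and were not called, although ATHB-52 rose from PF_Z to PF_D without PF_Z replicate 3.

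**Figure D3:**
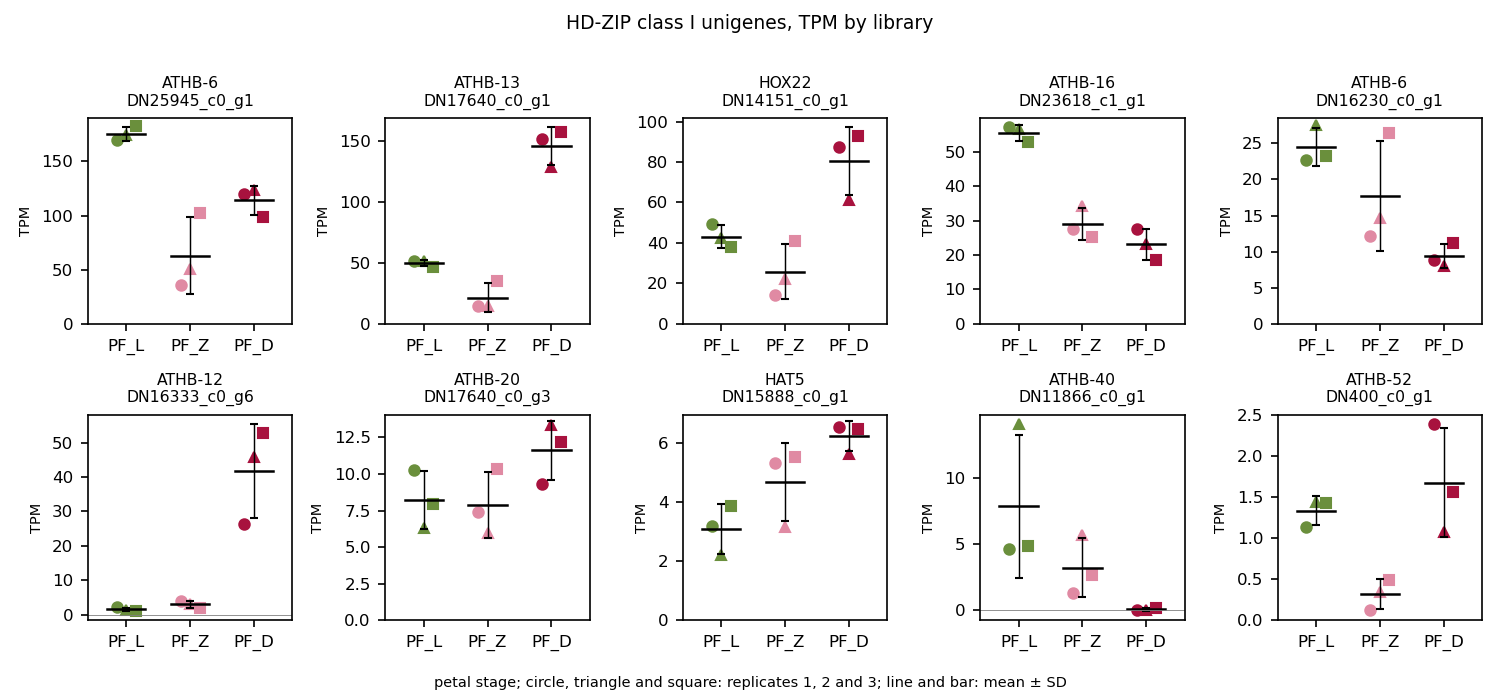
TPM of the 10 HD-ZIP class I unigenes in each library at the 3 stages, with circle, triangle and square for replicates 1, 2 and 3 and line and bar for the mean ± SD of 3 libraries. ATHB-12 is at 1.16 to 3.79 TPM in PF_L and PF_Z and at 26.4 to 52.8 in PF_D, and PF_Z replicate 3 (square) is the highest PF_Z library for both ATHB-6 unigenes, ATHB-13 and HOX22.

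Class II fell between PF_L and PF_D at 4 of 8 members and rose at 1, beside 15.7% lower and 9.38% higher among all tested unigenes. The HAT14 name was carried by a pair of unigenes in the same Trinity component. The first, TRINITY_DN22426_c0_g4, is a fragment of 207 bp and was at 119, 93.6 and 111 TPM in PF_L, 24.4, 49.5 and 46.3 in PF_Z and 16.9, 20.5 and 34.8 in PF_D. The second, TRINITY_DN22426_c0_g3, was at 27.4, 27.1 and 26.99 TPM in PF_L, 6.92, 16.9 and 16.2 in PF_Z and 3.58, 4.69 and 6.77 in PF_D. For both, every PF_L library lay above all others, and they fell from PF_L to PF_D by 2.18 log2 units (SE 0.30, limma adjusted p = 0.00038) and 2.26 log2 units (SE 0.31, limma adjusted p = 0.00035). The first was also called lower in PF_Z against PF_L, which was lost without PF_L replicate 1 or 3 (changes of -1.65 to -1.15 as libraries were left out), and the second in PF_D against PF_Z, lost without PF_Z replicate 2 or PF_D replicate 1 or 2 (changes of -1.58 to -0.99). HOX11 (TRINITY_DN22426_c0_g1), of the same component, fell by 1.41 log2 units (SE 0.43, limma adjusted p = 0.026) from 2.80 to 3.82 TPM in PF_L, a call lost without any 1 of the 6 libraries compared. Outside PF_L, HOX11 reached 1 TPM in PF_Z replicate 2 alone, so this call is given as a description. HAT4 (TRINITY_DN22143_c0_g1) is named for a gene of the shade response in Arabidopsis, but its Nr match was named HAT3. It was at 24.2, 23.4 and 23.9 TPM in PF_L, 13.7, 16.97 and 14.2 in PF_Z and 5.92, 4.95 and 5.11 in PF_D. The libraries of each stage were close together and no stages overlapped, and HAT4 fell by 1.97 log2 units (SE 0.15, limma adjusted p = 9.1e-06) from PF_L to PF_D and by 1.33 log2 units (SE 0.15, limma adjusted p = 0.00022) from PF_Z. HOX1 (TRINITY_DN16228_c0_g5, 291 bp) was listed at 0 in all 6 PF_L and PF_Z libraries and at 2.76, 2.51 and 1.42 TPM in PF_D, so it passed the filter on low values only through the PF_D libraries, and its calls as higher in PF_D against both stages are given as a description. HAT3 (TRINITY_DN22218_c1_g1) at 19.2 to 47.1 TPM and a pair of HAT22 unigenes at 0.66 to 9.46 TPM were not called. The Nr match of this HAT3 unigene was named HAT4, so which unigene is the relative of which gene is uncertain.

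Class IV genes mark and pattern the epidermis. Of the 14 members, 4 were called in at least 1 comparison (28.6%, beside 31.2% of all tested unigenes), and these 4 were lower. Without PF_Z replicate 3, ROC5 (TRINITY_DN19444_c0_g3) was also called, lower in PF_Z against PF_L and higher in PF_D against PF_Z. ROC6 (TRINITY_DN27737_c1_g4), a fragment of 300 bp whose Nr match was named ANL2, had the highest mean of all members and was at 113, 101 and 119 TPM in PF_L, 124, 109 and 175 in PF_Z and 134, 141 and 159.7 in PF_D. The PF_D libraries lay above all PF_L libraries and within the range of PF_Z, and no change was called. PDF2, which with ATML1 sets epidermal identity in Arabidopsis, was matched by a pair of unigenes, of which TRINITY_DN27737_c1_g1 was at 40.95, 40.5 and 40.9 TPM in PF_L, 24.7, 30.4 and 39.4 in PF_Z and 38.1, 51.7 and 40.96 in PF_D. Its changes from PF_L were -0.39 (SE 0.18) in PF_Z and 0.08 (SE 0.18) in PF_D. ANL2 (TRINITY_DN27737_c1_g3), named in Arabidopsis for the anthocyanin of leaves, was at 91.4, 82.2 and 79.6 TPM in PF_L, 91.6, 99.5 and 139 in PF_Z and 116, 114 and 109 in PF_D, with a change from PF_L to PF_D of 0.42 (SE 0.16, limma adjusted p = 0.072). Also not called was GLABRA2 (GL2, TRINITY_DN19444_c0_g1), a gene of trichome and root hair patterning, at 13.8 to 29.2 TPM over all libraries.

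The 4 class IV members that fell began at a range of levels. ROC3 (TRINITY_DN28147_c1_g1), whose Nr match was named HDG5, was at 51.1, 86.7 and 74.5 TPM in PF_L, 28.6, 41.3 and 26.7 in PF_Z and 0.89, 1.49 and 1.93 in PF_D. The levels stepped down with no overlap, and the change from PF_L to PF_D, -4.87 log2 units (SE 0.25, limma adjusted p = 8.1e-07), was the largest fall of the 91 members. From PF_Z to PF_D it fell by 3.77 log2 units (SE 0.25, limma adjusted p = 1.2e-05), while its change from PF_L to PF_Z, -1.10 log2 units (SE 0.25, limma adjusted p = 0.024), was called in 13 of 20 alternatives and was lost without PF_L replicate 2 or 3 or PF_Z replicate 1 or 3, with changes of -1.32 to -0.94 as libraries were left out. In the same libraries, the ratio of PDF2 TRINITY_DN27737_c1_g1 to ROC3 was 0.467 to 0.801 in PF_L, 0.737 to 1.47 in PF_Z and 21.2 to 42.9 in PF_D, a pair chosen after its values were seen. HDG11 (TRINITY_DN26360_c0_g1), a gene of trichome branching in Arabidopsis, was at 6.73, 7.71 and 10.3 TPM in PF_L, 0.95, 2.36 and 2.19 in PF_Z and 0.15, 0.13 and 0.07 in PF_D. It was called lower in all 3 comparisons, with no overlap between stages and a change of -3.03 log2 units (SE 0.29, limma adjusted p = 3.5e-05) from PF_L to PF_D. Outside PF_L, HDG11 reached 1 TPM in PF_Z replicates 2 and 3 alone, so its calls against PF_L are given as a description. HDG2 (TRINITY_DN28265_c1_g1), which promotes stomata in Arabidopsis, was at 70.6, 101 and 103 TPM in PF_L, 39.3, 55.4 and 48.9 in PF_Z and 23.6, 42.8 and 28.4 in PF_D. Its PF_L libraries were above all others, and it fell by 1.53 log2 units (SE 0.24, limma adjusted p = 0.00077) from PF_L to PF_D, as did ROC2 (TRINITY_DN28265_c1_g3) of the same component by 1.38 log2 units (SE 0.21, limma adjusted p = 0.00062).

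The KNOX members that were called moved in opposite directions. KNAT7 (TRINITY_DN25578_c0_g1), a class II KNOX gene of secondary wall formation in Arabidopsis, was at 50.6, 55.1 and 38.98 TPM in PF_L, 121, 96.7 and 196 in PF_Z and 158, 151 and 154 in PF_D. All PF_Z and PF_D libraries lay above all PF_L libraries, and PF_D lay within the range of PF_Z. It rose by 1.45 log2 units (SE 0.24, limma adjusted p = 0.0057) from PF_L to PF_Z and by 1.67 log2 units (SE 0.24, limma adjusted p = 0.00044) to PF_D.

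The name knotted-1-like 3, from the apple protein, was carried by a pair of unigenes that fell. The first, TRINITY_DN25768_c0_g3, was at 62.3, 89.4 and 78.6 TPM in PF_L, 212, 109 and 118 in PF_Z and 24.5, 34.5 and 33.5 in PF_D. All PF_Z libraries exceeded all PF_L libraries, although the change of 0.87 (SE 0.26, limma adjusted p = 0.062) was not called, and all PF_D libraries were below both. It fell by 1.29 log2 units (SE 0.26, limma adjusted p = 0.0033) from PF_L to PF_D and by 2.16 log2 units (SE 0.26, limma adjusted p = 0.0003) from PF_Z. The second, TRINITY_DN19198_c0_g3, was at 27.2, 43.05 and 34.2 TPM in PF_L, 24.9, 26.8 and 20.7 in PF_Z and 3.24, 1.88 and 2.96 in PF_D. Its PF_D libraries, at 3.24 TPM or less, lay below every other library, and it fell by 3.27 log2 units (SE 0.22, limma adjusted p = 3.8e-06) from PF_L and by 2.78 log2 units (SE 0.22, limma adjusted p = 2.9e-05) from PF_Z. Within a library, KNAT7 stood at 0.496 to 0.813 times the first of these in PF_L, 0.571 to 1.67 times in PF_Z and 4.37 to 6.42 times in PF_D, a pair chosen after its values were seen. The class I KNOX genes, which act in meristems, were low in every library. SHOOT MERISTEMLESS (STM, TRINITY_DN4246_c0_g1) was at 0.14 to 2.39 TPM, the rice relative OSH71 (TRINITY_DN18875_c1_g3) at 1.32 to 3.06, and 3 KNAT6 unigenes of 220 to 355 bp at 0 to 9.95, and none of these was called.

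The BEL1 family, whose proteins pair with KNOX proteins, had 3 of 12 members higher and 3 lower in PF_D against PF_L. Among all tested unigenes 9.38% were higher and 15.7% lower. BLH1 (TRINITY_DN25691_c0_g2), known in Arabidopsis from embryo sac development, was at 23.9, 19.4 and 19.7 TPM in PF_L, 77.5, 67.6 and 81.5 in PF_Z and 106, 181 and 178 in PF_D. The levels stepped up from stage to stage with no overlap. It rose by 1.80 log2 units (SE 0.21, limma adjusted p = 0.00091) from PF_L to PF_Z and by 2.79 log2 units (SE 0.21, limma adjusted p = 8e-06) to PF_D, and its change from PF_Z to PF_D, 0.99 (SE 0.21), missed the limit of 1 and passed it without PF_Z replicate 1 or 3 or PF_D replicate 1. BLH1 and KNAT7 were the 2 members called higher in PF_Z against PF_L with TPM as deposited.

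BLH7 (TRINITY_DN26537_c1_g1) was at 15.5, 14.5 and 24.01 TPM in PF_L, 16.7, 26.4 and 30.4 in PF_Z and 41.2, 53.6 and 39.8 in PF_D. Its PF_D libraries were above all others while PF_L and PF_Z overlapped, with a rise of 1.29 log2 units (SE 0.25, limma adjusted p = 0.0029) from PF_L to PF_D. BEL1 itself (TRINITY_DN16431_c0_g1), a gene of the ovule integuments in Arabidopsis, was at 1.34, 1.69 and 0.96 TPM in PF_L, 2.73, 2.31 and 5.18 in PF_Z and 6.18, 10.6 and 9.54 in PF_D. No stages overlapped, and it rose by 2.05 log2 units (SE 0.30, limma adjusted p = 0.00053) from PF_L to PF_D. Its call in PF_D against PF_Z was lost without PF_Z replicate 1 or 2 or PF_D replicate 2 or 3, with changes of up to 1.45. The 3 carpel marker unigenes (AG and SPT) summed to 36.9 to 53.1 TPM in PF_L, 28.7 to 34.7 in PF_Z and 5.70 to 8.73 in PF_D. In PF_L and PF_Z most of this sum came from SPT TRINITY_DN14793_c0_g1 at 29.5, 43.1 and 41.9 TPM in PF_L, 23.8, 30.7 and 22.8 in PF_Z and 0.18, 0.67 and 1.07 in PF_D, while AG (TRINITY_DN15050_c0_g1) was at 2.37, 4.51 and 1.49 TPM in PF_L, 2.91, 2.76 and 6.60 in PF_Z and 3.45, 4.78 and 5.13 in PF_D and was not called. Their part in the rise of BEL1 was not tested.

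BLH11 (TRINITY_DN22169_c0_g1) was at 25.5, 27.9 and 21.7 TPM in PF_L, 6.58, 6.58 and 15.8 in PF_Z and 0.92, 0.91 and 1.85 in PF_D. No stages overlapped, and it fell by 3.57 log2 units (SE 0.32, limma adjusted p = 2.3e-05) from PF_L to PF_D and by 2.18 log2 units (SE 0.32, limma adjusted p = 0.00089) from PF_Z. Its call in PF_Z against PF_L was lost without any 1 of the 3 PF_L libraries or PF_Z replicate 1 or 2, with changes of -1.77 to -1.20. A pair of BLH8 unigenes of 1 component, at 3.31 to 8.08 TPM in PF_L and 0 to 0.52 in PF_D, also fell. From PF_L to PF_D, BLH8 TRINITY_DN22243_c1_g7 fell by 2.81 log2 units (SE 0.37, limma adjusted p = 0.00027) and BLH8 TRINITY_DN22243_c1_g3 by 2.11 log2 units (SE 0.31, limma adjusted p = 0.00052). The latter was also called lower in PF_Z against PF_L, a call lost in 13 of 19 alternatives, among them those without any 1 of the 3 PF_L libraries, PF_Z replicate 2 or PF_D replicate 2 or 3. Outside PF_L this unigene reached 1 TPM in PF_Z replicates 1 and 3 alone, so its calls are given as a description. BLH2, a gene of leaf shape in Arabidopsis, was not called at either of its unigenes, of which TRINITY_DN23902_c1_g1 was at 69.7, 58.7 and 53.5 TPM in PF_L, 29.1, 34.3 and 54.3 in PF_Z and 42.6, 45.2 and 42.1 in PF_D. The PF_D libraries lay within the range of PF_Z and below all PF_L libraries, and its change from PF_L to PF_D was -0.47 (SE 0.21, limma adjusted p = 0.11). ATH1, BLH3, BLH9 and a further BLH8 unigene were not called.

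**Figure D4:**
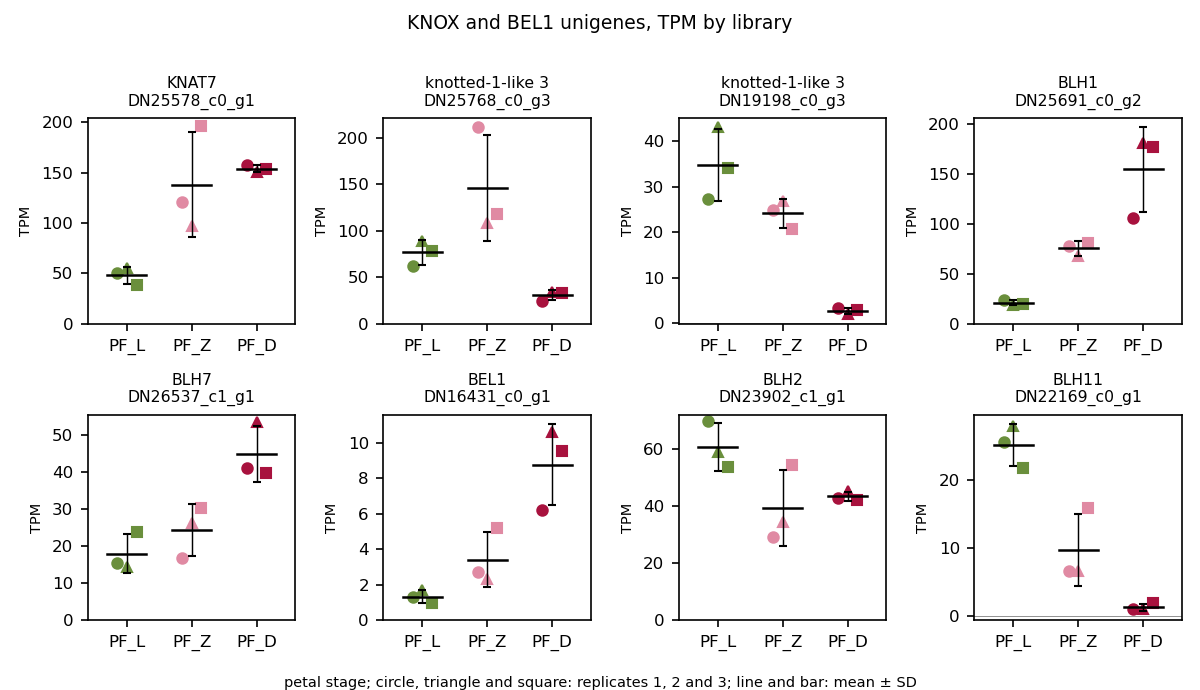
TPM of 3 KNOX and 5 BEL1 unigenes in each library at the 3 stages, with circle, triangle and square for replicates 1, 2 and 3 and line and bar for the mean ± SD of 3 libraries. KNAT7 and BLH1 are higher in every PF_Z and PF_D library than in any PF_L library, and knotted-1-like 3 DN25768_c0_g3 is highest in PF_Z at 109 to 212 TPM and lowest in PF_D at 24.5 to 34.5.

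Of the 4 WOX members, WOX1 alone was called, and it passed the filter on low values only through the PF_L libraries. WOX1 (TRINITY_DN25638_c0_g1), which acts in the outgrowth of blades and petals in Arabidopsis, was at 12.6, 18.4 and 12.4 TPM in PF_L, 0, 0.84 and 0.16 in PF_Z and 0, 0 and 0.02 in PF_D. It was 12.4 TPM or more in the PF_L libraries and under 1 TPM in the other 6, and it fell by 3.57 log2 units (SE 0.30, limma adjusted p = 0.00019) from PF_L to PF_Z and by 3.92 log2 units (SE 0.30, limma adjusted p = 9.9e-06) to PF_D. The change between PF_Z and PF_D was not called. WOX8 was matched by a pair of unigenes, and the higher of these (TRINITY_DN19901_c0_g1) was at 34.6, 34.5 and 31.8 TPM in PF_L, 37, 34.5 and 41.9 in PF_Z and 35.6, 28.2 and 26.2 in PF_D. Its changes were 0.16 (SE 0.15) in PF_Z and -0.17 (SE 0.15) in PF_D against PF_L. The second WOX8 unigene at 4.08 to 8.49 TPM and a 236 bp fragment named WOX4, a cambium gene, at 0 to 4.24 TPM were not called.

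Most of the ZHD family fell at the first step. In PF_Z against PF_L, 8 of 9 members were lower, beside 4.7% of all tested unigenes, with a family median of -2.18 beside -0.21. In PF_D against PF_L, 8 of 9 were lower, beside 15.7% of all tested unigenes, with a median of -2.69 beside -0.12. Of the 8, 2 reached 1 TPM in the PF_L libraries alone, and without these 6 of 7 members were lower in both comparisons. The 6 still include ZHD1 TRINITY_DN13742_c0_g2, which outside PF_L reached 1 TPM in PF_Z replicate 2 alone (1.07 TPM). It too passed the filter only with the PF_L libraries, so these counts are given as a description. Between PF_Z and PF_D 2 fell further, where 9.07% of all tested unigenes were lower. The member not called was ZHD9 (TRINITY_DN20815_c0_g3), the member of the family with the highest mean, at 113, 109 and 92.3 TPM in PF_L, 84.1, 62.3 and 112 in PF_Z and 59.5, 86 and 62.2 in PF_D. Its PF_Z libraries overlapped both other stages, PF_D lay below PF_L, and the change from PF_L to PF_D was -0.61 (SE 0.22, limma adjusted p = 0.057).

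ZHD4 TRINITY_DN16683_c0_g1, whose Nr match was named for protein 10 of the family, was at 101, 84.2 and 88.3 TPM in PF_L, 17.6, 16.3 and 50.5 in PF_Z and 8.48, 6.07 and 9.19 in PF_D. No stages overlapped, and PF_Z replicate 3 lay well above the other PF_Z libraries. It fell by 1.85 log2 units (SE 0.36, limma adjusted p = 0.012) from PF_L to PF_Z and by 3.39 log2 units (SE 0.36, limma adjusted p = 7e-05) to PF_D. ZHD4 TRINITY_DN22040_c0_g3 was at 25.6, 26.04 and 25.6 TPM in PF_L, 4.80, 5.26 and 14.96 in PF_Z and 0.73, 0.99 and 0.63 in PF_D, with PF_Z replicate 3 again the highest of its stage. It fell by 1.68 log2 units (SE 0.34, limma adjusted p = 0.015) from PF_L to PF_Z and by 2.23 log2 units (SE 0.34, limma adjusted p = 0.0012) from PF_Z to PF_D. Both were called in all 3 comparisons, although the first step of the latter was lost without any 1 of the 3 PF_L libraries or PF_Z replicate 1 or 2, with changes of -2.15 to -1.42.

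The 5 unigenes named ZHD1 and ZHD8 (TRINITY_DN16683_c0_g2) all fell at the first step. Of the 5, TRINITY_DN21624_c1_g1 has the gene name ZHD1 but is described as zinc-finger homeodomain protein 2. The Nr matches of TRINITY_DN21624_c1_g2 and ZHD8 were named for protein 11 of the family, and that of TRINITY_DN18972_c0_g1 for protein 6. The identity of these unigenes within the family is thus uncertain. TRINITY_DN21624_c1_g1 was at 7, 12.6 and 8.38 TPM in PF_L, 0.33, 0.83 and 0.28 in PF_Z and 0, 0 and 0 in PF_D, with a change of -2.78 log2 units (SE 0.29, limma adjusted p = 0.00058) from PF_L to PF_Z. It and ZHD1 TRINITY_DN21624_c0_g1 were listed at 0 in every PF_D library and at or above 1 TPM only in PF_L. The PF_L replicate 2 library was the highest for all 5 of these and ZHD8, at 7.92 to 19.5 TPM. None of these 6 was called between PF_Z and PF_D, with changes from -0.80 to -0.03. Of those named ZHD1, TRINITY_DN21624_c1_g1, TRINITY_DN21624_c1_g2 and TRINITY_DN21624_c0_g1 lie in 1 Trinity component and may share reads.

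**Figure D5:**
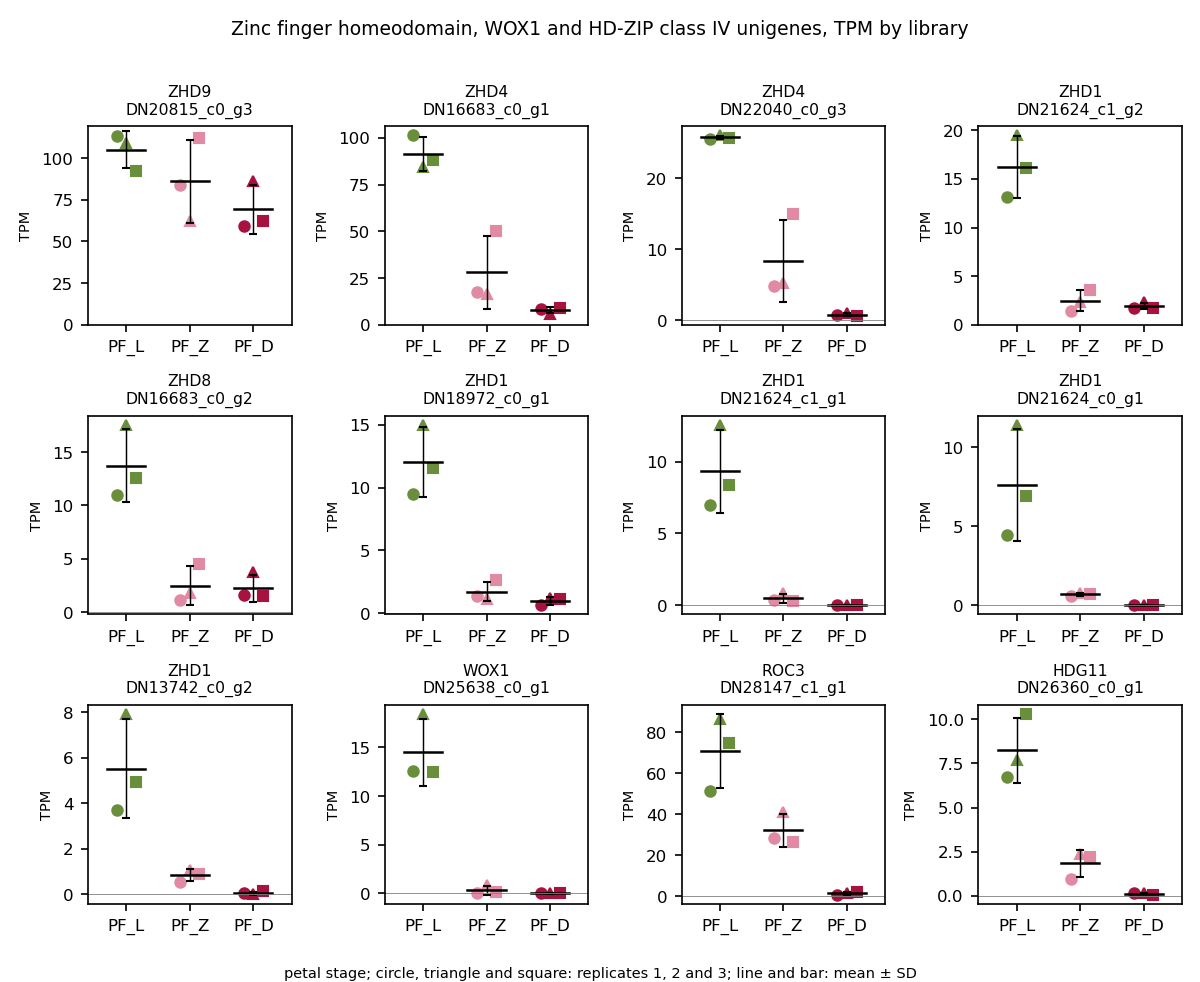
TPM of the 9 ZHD unigenes, WOX1 and the HD-ZIP class IV unigenes ROC3 and HDG11 in each library at the 3 stages, with circle, triangle and square for replicates 1, 2 and 3 and line and bar for the mean ± SD of 3 libraries. In every panel but ZHD9 the PF_L points lie above all PF_Z and PF_D points, and the squares of both ZHD4 panels (50.5 and 14.96 TPM) stand above the other PF_Z points.

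Of the remaining 17 homeobox unigenes, RLT3 alone was called with all 9 libraries, where 31.2% of all tested unigenes were called in at least 1 comparison. NDX TRINITY_DN26258_c0_g3 and LD TRINITY_DN15277_c0_g1 were also called, higher in PF_D against PF_Z, without PF_Z replicate 3. None of the 5 PHD-finger members, all matched to the pathogenesis-related homeodomain protein PRH, was called by limma (an unadjusted p under 0.05 was found for 0, 3 and 2 in PF_Z against PF_L, PF_D against PF_L and PF_D against PF_Z), and the most abundant of them (TRINITY_DN28592_c0_g3) was at 21, 19.7 and 18.6 TPM in PF_L, 19.6, 17.03 and 20.97 in PF_Z and 24.4, 33.8 and 27.7 in PF_D. Its PF_D libraries lay above all others, by less than the limit of a call. Among the 12 others were RINGLET (RLT) proteins, partners of chromatin remodellers in Arabidopsis, the RNA-directed DNA methylation proteins SHH1 and SHH2, the flowering regulator LUMINIDEPENDENS and NDX. RLT1 TRINITY_DN27938_c0_g1, with the highest mean of them, was at 25.3 to 44.9 TPM over all libraries. RLT3 (TRINITY_DN28382_c1_g1) was at 4.71, 4.56 and 4.56 TPM in PF_L, 2.99, 2.48 and 4.56 in PF_Z and 0.36, 1.45 and 1.25 in PF_D. Its PF_D libraries were below all others, and it fell by 1.52 log2 units (SE 0.29, limma adjusted p = 0.0027) from PF_L and by 1.12 log2 units (SE 0.29, limma adjusted p = 0.018) from PF_Z, the latter lost without PF_Z replicate 3 or PF_D replicate 1, with changes of -1.28 to -0.86.

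Set side by side, HD-ZIP, KNOX, BEL1 and WOX differed in their counts, with no test made between families. In PF_D against PF_L, 3 of 41 HD-ZIP members were higher and 18 lower (median -0.44), 1 of 8 KNOX higher and 2 lower (median -0.73), 3 of 12 BEL1 higher and 3 lower (median -0.08), and of 4 WOX none higher and 1 lower (median -0.72), beside 9.38% higher, 15.7% lower and a median of -0.12 for all tested unigenes. The BEL1 median was near that of all unigenes. The share of WOX members called was near the 25.1% of all unigenes. The WOX member called, WOX1, passed the filter only through PF_L, so this share is given as a description. HOX1, 1 of the 3 HD-ZIP members higher, passed the filter only through PF_D. HOX11 and HDG11, among the HD-ZIP members lower, and BLH8 TRINITY_DN22243_c1_g3, among the BEL1 members lower, needed the PF_L libraries to pass it. The summed level of the KNOX members was 157 to 196 TPM in PF_L, 240.0 to 363 in PF_Z and 189 to 198 in PF_D, and that of BEL1 190.3 to 216 TPM, 177 to 252 and 246 to 354. WOX members summed to 56.35 to 61.45, 43.5 to 50.7 and 32.6 to 41.0 TPM, and class III members to 132 to 157, 92.8 to 143 and 46.3 to 61.05 TPM.

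Genes known to act with homeobox proteins were taken from lists by name. Of 9 OVATE family proteins, which bind KNOX and BEL1 proteins, 1 was higher and 4 lower in PF_D against PF_L. Beside this, 9.38% of all tested unigenes were higher and 15.7% lower. Of the 4, OFP7 and OFP8 reached 1 TPM only in the PF_L libraries, so their calls are given as a description. The same holds for OFP2 TRINITY_DN6743_c0_g1, also of the 4, which outside PF_L reached 1 TPM in 1 PF_D library alone (1.72 TPM). OFP17 (TRINITY_DN11799_c0_g1) was at 3.35, 3.34 and 3.63 TPM in PF_L, 13.2, 16.2 and 17.04 in PF_Z and 1.55, 0.45 and 0.79 in PF_D. It peaked in PF_Z with no overlap between stages, with changes of 1.89 log2 units (SE 0.24, limma adjusted p = 0.0017) from PF_L to PF_Z and, from PF_Z to PF_D, of -3.13 log2 units (SE 0.24, limma adjusted p = 2.9e-05). OFP6 (TRINITY_DN15442_c0_g5) was at 0.62, 0.94 and 1.01 TPM in PF_L, 5.07, 5.64 and 7.11 in PF_Z and 6.72, 7 and 7.84 in PF_D, and like KNAT7 and BLH1 it was called higher in both later stages against PF_L. OFP13 (TRINITY_DN15864_c2_g4), the most abundant, was at 13.7, 9.21 and 14.7 TPM in PF_L, 4.44, 6.86 and 12.2 in PF_Z and 12.1, 16.1 and 19.6 in PF_D. PF_Z replicate 3 lay within the range of PF_D, and OFP13 was called only in PF_D against PF_Z, with a rise of 1.01 log2 units (SE 0.32, limma adjusted p = 0.04).

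Of 16 Asymmetric Leaves and LOB domain proteins, which restrict KNOX genes or mark organ boundaries, 2 were higher and 9 lower in PF_D against PF_L. In that comparison 9.38% of all tested unigenes were higher and 15.7% lower. Of those lower, both LBD4 unigenes and LBD15 reached 1 TPM in fewer than 3 libraries outside PF_L. Of those higher, LBD38 TRINITY_DN21401_c1_g1 did so in fewer than 3 libraries outside PF_D. The calls of these LBD4, LBD15 and LBD38 unigenes are given as a description. LBD6 (Asymmetric Leaves2, TRINITY_DN15693_c0_g1) was at 8.96, 13.5 and 11.01 TPM in PF_L, 1.21, 2 and 2.10 in PF_Z and 1.03, 1.12 and 0.73 in PF_D. Its PF_L libraries lay above all others, and it fell by 2.13 log2 units (SE 0.25, limma adjusted p = 0.00093) from PF_L to PF_Z. LBD41 (TRINITY_DN26122_c1_g1) was at 361, 33.4 and 77.5 TPM in PF_L, 58.1, 57.7 and 38.3 in PF_Z and 1053, 443 and 452 in PF_D, which is higher in every PF_D library than in any other but with a PF_L replicate 1 far above the rest of its stage. Of 6 YABBY and KANADI proteins, which set the lower side of organs, none was higher and 3 were lower in PF_D against PF_L, beside the same shares of all unigenes. Of these 3, KAN4 reached 1 TPM outside PF_L in PF_Z replicate 3 alone, so its call is given as a description. The more abundant YAB1 unigene (TRINITY_DN14565_c0_g1) was at 174, 200.4 and 185 TPM in PF_L, 106, 84 and 125 in PF_Z and 72.2, 46.98 and 63.1 in PF_D. It fell by 1.62 log2 units (SE 0.19, limma adjusted p = 0.00015) from PF_L to PF_D with no overlap between stages. The other (TRINITY_DN19970_c0_g1) fell by 2.90 log2 units (SE 0.22, limma adjusted p = 8.8e-06). YAB2 and YAB5 went the other way, with every PF_D library above all others, but stayed under the fold limit of a call. From PF_L to PF_D they changed by 0.58 (SE 0.14, limma adjusted p = 0.0093) and 0.56 (SE 0.17, limma adjusted p = 0.031).

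Of 13 CLAVATA, CLE and BAM proteins, which act with WUSCHEL in meristems, 5 were lower and none higher in PF_D against PF_L, beside 15.7% and 9.38% of all tested unigenes. Of the 5, CLE16 reached 1 TPM outside PF_L in PF_Z replicates 2 and 3 alone, so its call is given as a description. Of 7 TOPLESS corepressors, which bind WOX and many other factors, none was called by limma in any comparison, beside 31.2% of all tested unigenes called in at least 1. An unadjusted p under 0.05 was found for 1 of these corepressors in PF_Z against PF_L, 4 in PF_D against PF_L and 3 in PF_D against PF_Z. BAM1, a receptor kinase of the CLAVATA pathway, fell at 1 unigene (TRINITY_DN24467_c1_g1) by 2.27 log2 units (SE 0.39, limma adjusted p = 0.0015) from PF_L to PF_D and was not called at a more abundant one (TRINITY_DN28182_c2_g2). TPL (TRINITY_DN26711_c0_g3) was at 241, 259 and 239.9 TPM in PF_L, 200.1, 202 and 312 in PF_Z and 272, 399 and 311 in PF_D, with PF_Z overlapping both other stages and every PF_D library above PF_L. Of 7 gibberellin 2-oxidases, enzymes of the hormone balance that KNOX proteins control in other plants, 2 were higher and 1 lower in PF_D against PF_L. The shares of all tested unigenes were 9.38% higher and 15.7% lower. GA2OX8 TRINITY_DN7425_c0_g2, the member called lower, reached 1 TPM only in the PF_L libraries, so its call is given as a description. GA2OX1 TRINITY_DN21085_c0_g1 was at 128, 142 and 127 TPM in PF_L, 163, 289 and 305 in PF_Z and 162, 306 and 285 in PF_D and was not called, while GA2OX1 TRINITY_DN14766_c0_g2 rose by 2.29 log2 units (SE 0.37, limma adjusted p = 0.00093) from 0.06 to 0.16 TPM in PF_L to 2.70 to 5.90 in PF_D. The latter reached 1 TPM outside PF_D in PF_Z replicates 1 and 3 alone, so its call is also given as a description. GA2OX2 (TRINITY_DN10866_c0_g1) was called lower in PF_D against PF_Z, with a change of -1.66 log2 units (SE 0.44, limma adjusted p = 0.019). Outside PF_Z it reached 1 TPM in PF_L replicates 2 and 3 alone, so this call is given as a description.

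Markers of petal identity were present throughout. PMADS2, a B class gene of petals and stamens and the 1 name found of 8 searched, was at 1560 to 2009 TPM summed over its 2 unigenes in every library and was not called. The 22 unigenes of light harvesting and RuBisCO, markers of green tissue, summed to 5168 to 7698 TPM in PF_L, 1827 to 8024 in PF_Z and 429 to 1522 in PF_D. In PF_D against PF_L 17 of them were lower, beside 15.7% of all tested unigenes. The 7 pollen and tapetum unigenes summed to 33.8 to 39.7, 35.5 to 37.9 and 13.2 to 17.6 TPM. Their part in the calls of the homeobox members was not tested.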

How the data were processed

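RNA of 9 petal libraries was sequenced by the authors, who assembled all reads de novo with Trinity, took the longest transcript of a cluster as its unigene and annotated it against protein databases. The values deposited by the authors are TPM, a length-corrected abundance with a common sum in every library. Summed over the listed unigenes, they came to 993148 to 994911 in a library. The program that estimated TPM is not given in the sources used here. The submitters' processing notes list Bowtie 0.12.2, HISAT2 2.0, StringTie 1.3.0 and a mouse build without a role. Depth and counting error cannot be read from TPM, and the edgeR test that the authors used on counts was not run.

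The 47924 unigenes that reached 1 TPM in 3 or more libraries were fitted with limma 3.58.1 (R 4.3.3) on log2(TPM + 1), using a mean for each stage and a variance trend on abundance, and p-values were adjusted by Benjamini-Hochberg over the whole table. The fit was also run on simulated data with known changes, which it recovered in part. With 3 libraries against 3, the smallest exact permutation p is 0.1, so this model carries the tests of single genes. Members, families and lists of partner and marker genes were chosen with earlier results of these data known. The rule for named genes took, in each family, the highest mean, the largest called rise and fall of each comparison and every member called in all 3, and in each partner list the highest mean and the largest called rise and fall. It gave 28 members, and other members were named after their values were seen. Plots were made with matplotlib 3.10.9 (Python 3.11.15). Sequences of the unigenes were not analysed here.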

Additional observations from a re-analysis of the deposited data

How the results depend on the processing

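The 6 counts of called members were recomputed under 20 alternatives: another amount added to the TPM, another filter, other scalings, other variance models, a model of the 6 libraries compared, a stricter adjusted p, the replicate number as a block and each library left out. Of the 82 calls of members, 53 were kept under every alternative in which the member was fitted. No called change of a named member reversed, and in the results of named members under the alternatives 59 calls were lost and 13 gained. In PF_Z against PF_L, the members called higher numbered 4 with median ratio scaling in place of 2, and those called lower 8 at an adjusted p under 0.01 in place of 16. In PF_D against PF_Z, with 5 TPM added in place of 1, 3 members were higher in place of 5 and 9 lower in place of 19. Leaving out 1 library at a time gave 2 members higher and 10 to 21 lower in PF_Z against PF_L, 7 higher and 32 to 33 lower in PF_D against PF_L, and 4 to 12 higher and 17 to 21 lower in PF_D against PF_Z. Replicates of the same number in different stages did not deviate together (correlations of -0.0963 to 0.0432). With 3 libraries in a stage this cannot exclude a pairing, and the labels do not say whether libraries of the same number were collected together. With the replicate number as a block, the counts were the same, at 2 and 16, 7 and 33, and 5 and 19, although in PF_Z against PF_L one BLH8 unigene lost its call and one HAT14 unigene gained one. Keeping only the 73 members of at least 500 bp, an alternative chosen after seeing the data, gave 2 and 14, 6 and 29, and 4 and 18. Median ratio scaling moved the calls of all unigenes in PF_Z against PF_L from 1029 higher and 2251 lower to 1419 and 1439. Members near 1 TPM have the least certain fold changes, and the results hold for 1 cultivar.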
